A study of Mus musculus with 12 samples.

Results

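Constitutive accessible regions at gene ends were described in AT2 cells of the mouse, the alveolar epithelial cells that make surfactant. A region was a stretch of the genome covered by merged broad peaks of Omni-ATAC-seq, an assay that marks open chromatin by where the enzyme Tn5 can insert adapters. The members were chosen by 3 criteria read from the peak lists themselves: a peak in all 12 libraries, a merged width under 2500 bp and a place within 1 kb of either end of a protein-coding gene. They numbered 10996 of 83727 merged regions, and made up 32.5% of the 33864 regions under 2500 bp that all 12 libraries held. The other 22868 such regions lay inside gene bodies (13540) or between genes (9328). That every library held a peak at these places, and that none was 2500 bp or wider, was set by the choice and is no result.

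All animals were BALB/c mice, 6 to 8 weeks of age, whose lungs were taken 7 days after 800000 tumour cells of a labelling line were given by tail vein. AT2 cells were sorted from the metastatic niche of CT26 (a colon carcinoma line of BALB/c mice), from distal lung of CT26 mice, from the metastatic niche of 4T1 (a mammary carcinoma line of BALB/c mice) and from distal lung of 4T1 mice, with 3 libraries in each of these 4 groups. Each library was made from 50000 sorted cells of 5 pooled lungs, so all mice carried tumour cells and distal lung is no healthy control. The study addressed how the chromatin of AT2 cells differs beside metastases. Open chromatin in fewer cells and less open chromatin in each cell cannot be told apart in such bulk lists.

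The start of an active gene is usually kept free of nucleosomes, so that transcription factors and RNA polymerase II can bind, and this holds in most cell types for genes that every cell needs. Such promoters are often rich in CG dinucleotides and in binding sequences of widely expressed factors (SP/KLF, ETS, NFY, NRF1, YY1). The far end of a gene, where transcripts are cleaved and polyadenylated, is open less often. Genes of AT2 identity, such as those of surfactant proteins, combine a promoter with many enhancers around it.

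The sequences below are the 300 bases around the starts of the 5 genes that ranked highest among members with a promoter in the RefSeq table (GRCm38.p6), then of the highest members with an NRF1 and a CRE sequence, then of the 2 lowest. They are shown because the rank of a member went with the letters of its promoter, as described further on. Each runs 5′ to 3′ on the strand of the gene from 250 bases before the start to 50 after it, and capitals mark every match to the 10 short motifs searched. *Thg1l*, a tRNA guanylyltransferase, lies at chr11:45955454-45955753 on the minus strand, *Zfp868* and *Zfp866*, both zinc finger genes, at chr8:69625499-69625798 and chr8:69774862-69775161 on the minus strand, *Tango6*, named for a role in Golgi organisation, at chr8:106682818-106683117 on the plus strand, and *Srp9*, a subunit of the signal recognition particle, at chr1:182124487-182124786 on the plus strand. *N6amt1*, a methyltransferase of a translation release factor, lies at chr16:87353935-87354234 on the plus strand, and *Larp7*, a protein of the 7SK ribonucleoprotein, at chr3:127553300-127553599 on the minus strand. *Cnn2*, an actin-binding calponin, lies at chr10:79988350-79988649 on the plus strand, and *Zfp36*, which marks messenger RNAs for decay, at chr7:28379179-28379478 on the minus strand.
Thg1l: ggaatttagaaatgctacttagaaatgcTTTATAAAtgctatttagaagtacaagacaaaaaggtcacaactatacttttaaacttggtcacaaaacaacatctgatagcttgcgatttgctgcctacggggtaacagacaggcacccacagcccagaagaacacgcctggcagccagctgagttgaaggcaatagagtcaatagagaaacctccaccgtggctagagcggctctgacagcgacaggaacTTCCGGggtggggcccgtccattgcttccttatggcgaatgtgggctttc
Zfp868: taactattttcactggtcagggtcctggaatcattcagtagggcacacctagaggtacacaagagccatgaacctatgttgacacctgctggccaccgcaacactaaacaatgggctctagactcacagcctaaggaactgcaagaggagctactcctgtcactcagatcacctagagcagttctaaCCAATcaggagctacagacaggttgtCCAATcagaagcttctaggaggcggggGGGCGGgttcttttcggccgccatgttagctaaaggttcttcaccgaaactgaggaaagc
Tango6: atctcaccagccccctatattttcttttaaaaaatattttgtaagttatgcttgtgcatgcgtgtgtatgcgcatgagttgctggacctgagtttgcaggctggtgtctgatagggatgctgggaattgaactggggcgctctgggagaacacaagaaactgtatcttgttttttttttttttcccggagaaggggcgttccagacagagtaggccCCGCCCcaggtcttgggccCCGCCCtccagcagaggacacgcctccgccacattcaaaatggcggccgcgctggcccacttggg
Zfp866: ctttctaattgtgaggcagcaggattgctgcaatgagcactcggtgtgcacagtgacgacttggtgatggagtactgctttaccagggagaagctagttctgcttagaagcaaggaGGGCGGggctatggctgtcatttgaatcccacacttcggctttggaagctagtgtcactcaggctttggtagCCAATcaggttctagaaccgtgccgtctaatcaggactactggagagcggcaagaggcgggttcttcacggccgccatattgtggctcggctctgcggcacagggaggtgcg
Srp9: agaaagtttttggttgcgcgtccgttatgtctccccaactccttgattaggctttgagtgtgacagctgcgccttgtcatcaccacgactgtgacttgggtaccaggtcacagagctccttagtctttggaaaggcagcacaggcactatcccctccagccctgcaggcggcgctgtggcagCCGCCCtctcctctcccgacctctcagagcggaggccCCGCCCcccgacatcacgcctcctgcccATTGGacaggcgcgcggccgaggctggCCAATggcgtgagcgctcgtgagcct
N6amt1: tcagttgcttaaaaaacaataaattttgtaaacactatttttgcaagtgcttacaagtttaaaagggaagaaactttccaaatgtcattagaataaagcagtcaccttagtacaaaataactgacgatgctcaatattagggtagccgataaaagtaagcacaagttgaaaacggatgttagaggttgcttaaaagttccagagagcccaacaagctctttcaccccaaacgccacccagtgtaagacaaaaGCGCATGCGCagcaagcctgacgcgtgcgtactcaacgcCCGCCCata
Larp7: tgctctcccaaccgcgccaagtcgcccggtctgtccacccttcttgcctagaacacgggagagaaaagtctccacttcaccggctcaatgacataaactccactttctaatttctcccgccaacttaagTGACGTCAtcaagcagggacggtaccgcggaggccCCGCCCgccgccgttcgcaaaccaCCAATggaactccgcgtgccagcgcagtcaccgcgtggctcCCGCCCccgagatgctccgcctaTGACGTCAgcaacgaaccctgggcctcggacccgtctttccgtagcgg
Cnn2: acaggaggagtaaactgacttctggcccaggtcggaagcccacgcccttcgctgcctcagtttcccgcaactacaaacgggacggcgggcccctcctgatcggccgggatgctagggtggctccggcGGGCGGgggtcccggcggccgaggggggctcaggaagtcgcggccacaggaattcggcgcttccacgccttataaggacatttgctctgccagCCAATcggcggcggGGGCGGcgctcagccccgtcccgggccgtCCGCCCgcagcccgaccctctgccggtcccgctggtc
Zfp36: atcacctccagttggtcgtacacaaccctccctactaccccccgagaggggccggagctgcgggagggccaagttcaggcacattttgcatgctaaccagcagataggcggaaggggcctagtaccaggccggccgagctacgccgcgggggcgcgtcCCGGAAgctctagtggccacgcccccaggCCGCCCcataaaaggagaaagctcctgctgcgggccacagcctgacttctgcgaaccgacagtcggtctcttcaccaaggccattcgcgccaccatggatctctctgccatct

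The lists held 42067 to 66911 peaks per library, with a median peak of 601 to 702 bp. Read counts are not part of the lists, and the depth behind a value is therefore unknown. The CT26 niche lists covered 40.4 ± 3.69 Mb, against 33.2 ± 1.63 Mb in the CT26 distal lists (mean ± SD, n = 3 each), which also held the fewest peaks of all groups. Of the 459 regions at gene ends that 11 libraries held, CT26 distal replicate 2 lacked 241, replicate 1 lacked 95 and replicate 3 lacked 31, and each of the other 9 libraries lacked 0 to 35. Of 12 AT2 marker genes, 10 had a member at an end, and *Lamp3* and *Nkx2-1* had a region in all 12 libraries that was 2500 bp or wider. So had *Lyz2* of the macrophage list and *Krt8* of the mammary list. Of 10 markers of alveolar type I cells 8 had a member, against 0 of 6 neutrophil markers and 1 of 8 macrophage and monocyte markers (*Cd68*). Of 8 lymphoid markers 2 had one (*Cd4* and *Cd79a*), both in a region shared with another gene. A member was also held by 1 of 8 fibroblast markers and 3 of 8 endothelial markers. In each of the club, ciliated, basal, mammary and intestinal lists, 1 to 3 of 5 or 6 markers had one.

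Of 21631 protein-coding genes, 11788 (54.5%) had a member at an end. The gene end lay inside the region for 9514 members (86.5%). The strand of a gene, known for 17274 genes, told its start from its far end: 8191 members (74.5%) lay at a start, 693 (6.30%) at far ends only, and 2112 (19.2%) at genes without a known strand. The share of regions at gene ends went up with the number of libraries that held the region. It was 5.16% of regions held by 1 library, 7.13% of those held by 6, 10.3% of those held by 11 and 33.2% of those held by all 12, of any width. On the X chromosome 36.1% of genes had a member, below each of the 19 autosomes, which ranged between 44.8% and 64.0%. Enrichment was close on both sides of the width and distance limits. The 63 members in the last 50 bp of width below the limit had a median enrichment of 4.40, against 4.36 for the 44 regions in the 50 bp from the limit on. The 113 members in the last 100 bp of distance from an end had 5.39, against 5.36 for the 107 regions in the 100 bp beyond it. All members had 6.11 over a median of 1004 bp, against 4.02 over 542 bp for the regions at gene ends that 11 libraries held. This last pair sets all members, not those near a limit, against regions that lack a call. A peak in every list was part of the choice, so nothing is read from it.

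Members were longer and more enriched than the other constitutive regions in every library. The median member was covered over 888 to 1093 bp, against 634 to 845 bp for the other constitutive regions, and the difference was 248 ± 18.8 bp (mean ± SD, n = 12 libraries, exact sign-flip test, two-sided p = 0.000488, the smallest this test can give). The deposited enrichment, the authors' fold of a peak over its background, had a median of 5.63 to 6.56 at members, against 4.58 to 5.55 at the others. The log2 ratio of these medians was 0.24 ± 0.035 (n = 12, exact p = 0.000488). Ranked within its own list, the median member stood at the percentile 73.3 to 80.0 of all peaks, against 52.1 to 68.4 for the others, a difference of 15.1 ± 3.24 points (n = 12, exact p = 0.000488). All 3 differences were positive in 12 of 12 libraries. With peaks of a −log10 q of at least 5 alone, the log2 ratio was 0.10 and the percentile difference 5.85 points, both with an exact p of 0.000488. Members in the top decile of their list made up 22.5% to 29.2%, against 7.53% to 14.4% of the other constitutive regions. The lists share the same genome and the same regions, so the 12 libraries are not independent of what the regions have in common. Members took up 16.5% to 26.3% of all peaks in a list and 24.3% to 33.2% of the covered length.

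**Figure D1:**
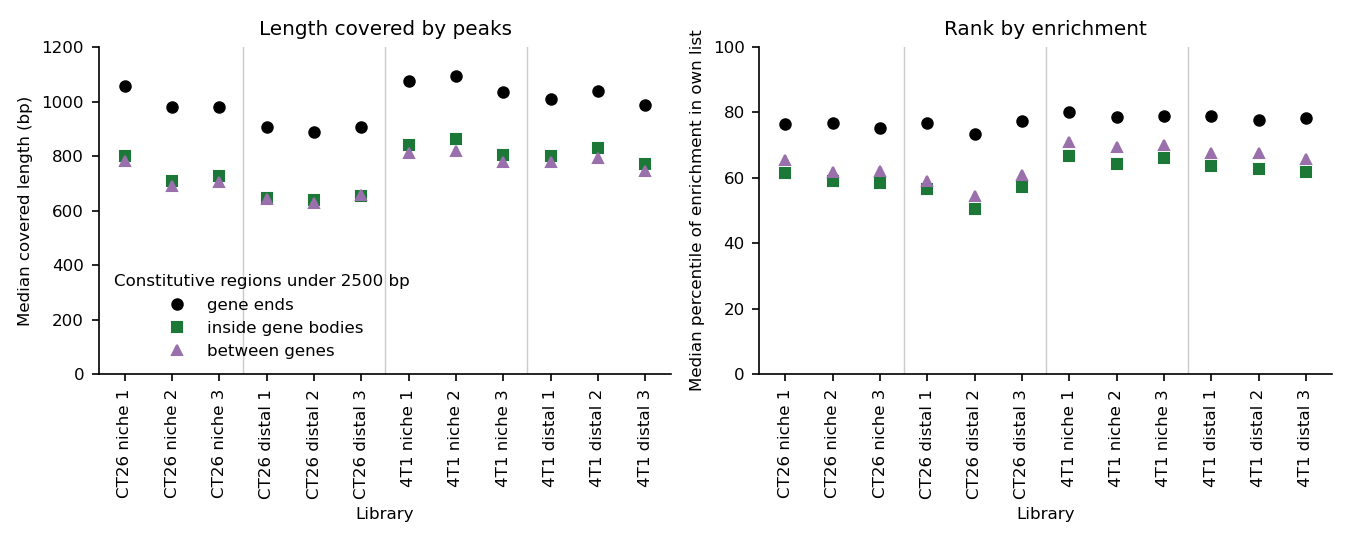
Median length covered by peaks (left, bp) and median percentile of enrichment within the library's own list (right) of constitutive regions under 2500 bp at gene ends (circles), inside gene bodies (squares) and between genes (triangles), for each of 12 libraries. Regions at gene ends lie above both other kinds in every library, at 888 to 1093 bp against 627 to 864 bp, and CT26 distal libraries have the lowest lengths.

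The rank of a member was much alike from list to list. Spearman's rho between libraries over the members was 0.878 to 0.922 within a group and 0.822 to 0.915 between groups, as a description across regions, which are not independent replicates. The range of a member's percentile over the 12 lists was 21.6 points at the median. In the top decile of every list stood 1039 members (9.45%), and 494 of the other constitutive regions (2.16%). The widest ranges among named genes belonged to *H4c17*, a histone H4 gene (percentile 9.16 to 97.2), *Oas1a*, an antiviral oligoadenylate synthetase (9.61 to 95.2), *Apol7a*, an apolipoprotein L (12.01 to 93.4), *Ppp2r3d*, a phosphatase subunit (17.8 to 97.8), and *Aipl1*, a co-chaperone (14.3 to 94.0). Several of these belong to families with near-identical copies, and how reads shared between copies were assigned is not given in the sources used here.

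Starts of genes ranked above far ends. Members at a start had a median percentile of 76.0 to 81.7 by library, against 49.6 to 65.8 at far ends only, a difference of 19.9 ± 3.13 points (12 of 12 libraries, exact sign-flip p = 0.000488). The far-end members were also shorter, at 653 to 899 bp by library, against 908 to 1111 bp at starts. Of the 693 far-end members, 27 held an annotated start of any kind, and the percentile without these 27 was 48.9 to 65.7. The 876 members with starts of genes on both strands, where a pair of genes is read in opposite directions, were 95 to 138 bp longer than the 6530 with a single gene start and stood 3.99 to 8.64 points higher, in 12 of 12 libraries. These values are given as a description.

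Around the annotated start the covered stretch reached further into the gene than away from it. The start is here the outer end of the gene in RefSeq. Starts that lie further inside a gene were not set apart, and their part in this skew was not tested. Over 5936 members at a single start, the peak reached 306 to 362 bp upstream of the start and 549 to 671 bp downstream, as medians by library. The downstream reach was the longer one at 72.5% to 76.3% of these members. The start itself lay under a peak in 93.8% to 97.6%. In CT26 niche libraries the reach was 324 to 355 bp upstream and 610 to 655 bp downstream, against 306 to 316 bp and 549 to 558 bp in CT26 distal libraries, which had the shortest reach of all groups on both sides.

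**Figure D2:**
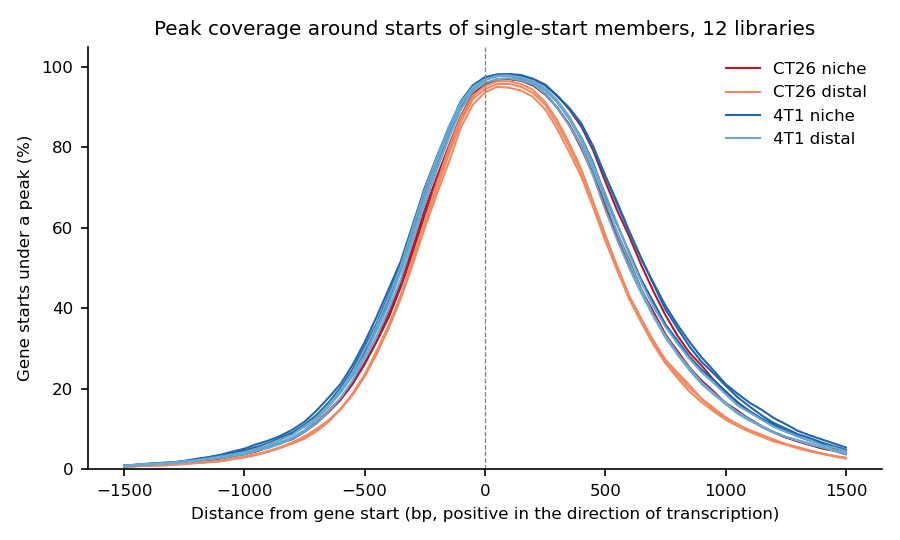
Share of 5936 annotated gene starts (the outer end of the gene) under a peak (%) at each distance from the start (bp, positive in the direction of transcription), with a line for each of the 12 libraries coloured by group. Every line is skewed toward the gene, and the CT26 distal lines are the narrowest, with 549 to 558 bp downstream.

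Genes of the machinery that all cells use had a member far more often than the average gene. All 13 RNA polymerase II subunits and all 9 genes of the CCT chaperonin, which folds actin and tubulin, had one, as did 75 of 78 genes of mitochondrial ribosomal proteins, 74 of 78 of cytosolic ribosomal proteins, 53 of 55 splicing factors, 46 of 49 genes of respiratory complex I, 36 of 39 proteasome subunits and 35 of 37 aminoacyl tRNA synthetases. The share over all protein-coding genes was 54.5%. At the other end stood the olfactory receptors with 5 of 1110, the vomeronasal receptors with 1 of 355, the Hox genes with 1 of 39 (*Hoxa13*) and the beta-defensins with 1 of 42. The region of the vomeronasal receptor (*Vmn1r4*) was shared with *Nt5c3*, a nucleotidase. The lists are name patterns chosen with these data known, and the shares are descriptions.

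Ranks within the families spread widely around the median of 79.5 over all genes with a member. RNA polymerase II subunits (76.1), ubiquitin-conjugating enzymes (74.97) and V-ATPase subunits (68.8) had medians below it. The order depended on the measure. By −log10 p, RNA polymerase II subunits (85.2) and ubiquitin-conjugating enzymes (86.6) stood above the median of all genes (84.2). V-ATPase subunits (81.0) and cytosolic (83.0) and mitochondrial (82.8) ribosomal protein genes stood below it by −log10 p, and the CCT chaperonin (92.0) and complex I (87.8) above. The genes of the CCT chaperonin had a median percentile of 91.5, with *Cct6a* highest (enrichment 9.25 to 11.02 over the 12 lists, median 10.1) and *Cct5*, in a region shared with *Atpsckmt*, lowest (5.75 to 7.50, median 6.87). Complex I genes had a median percentile of 89.7, from *Ndufa12* at 99.3 to *Ndufa4l2*, a variant subunit, at 23.5. The zinc finger genes named Zfp had 304 of 397 genes with a member and a median percentile of 86.3. Cytosolic ribosomal protein genes stood at 83.4 in the median, with *Rps27a* at 98.9 and *Rpl19* at 21.6, in regions shared with *Clhc1* and *Cacnb1*. Histone genes, of which 55 of 73 had a member, stood at 67.2, and solute carriers, with 230 of 375, at 75.5. Among genes in common use as references, *Rplp0*, a protein of the ribosomal stalk, had an enrichment of 7.53 to 9.71, *Hprt* of 5.74 to 7.73, *Tbp* of 4.45 to 5.93 and *Actb* of 3.65 to 4.73.

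**Figure D3:**
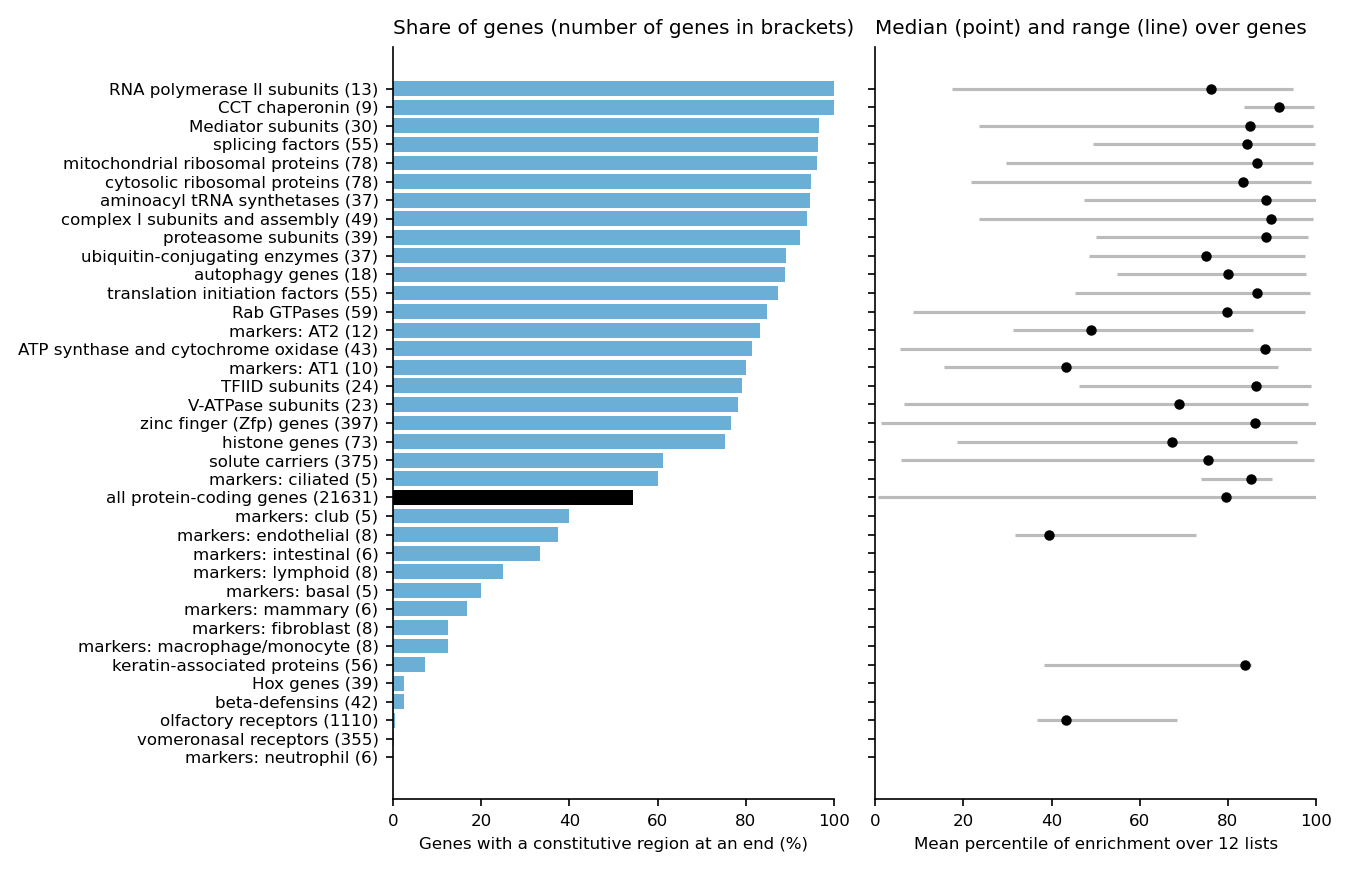
Share of the genes of each list with a constitutive region at an end (%, left, with the number of genes in brackets and all protein-coding genes in black), and the median and range over genes of the mean percentile of enrichment (right, for lists with 3 or more genes with a member). Most lists of machinery of all cells stand near the top, though TFIID (79.2%) and V-ATPase subunits (78.3%) stand below AT2 markers (83.3%). Neutrophil markers and receptors of smell stand at the bottom. AT2 and AT1 marker genes have high shares but median percentiles of 49.1 and 43.3.

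AT2 genes were open in every library, and most did not rank high by enrichment. The 10 AT2 markers with a member had a median percentile of 49.1 by enrichment, against 79.5 over all genes with one, but 84.5 by the deposited −log10 p, against 84.2. They also covered more, with a median of 1411 bp against 1013 bp, and the part of length in the enrichment was not tested. By enrichment *Sftpa1* at 85.6 and *Sftpd* at 79.8 stood above the median of all genes. *Sftpc*, the surfactant protein C gene and the defining AT2 marker, had an enrichment of 3.44 to 4.44 (median 3.88) and a covered length of 665 to 1061 bp. *Sftpb* had 4.57 to 6.28 (median 5.32) over 1437 to 1676 bp, and *Sftpa1* 5.73 to 7.50 (median 6.93). *Abca3*, the lipid transporter of lamellar bodies, had 3.49 to 4.18 in a region shared with *Abca17*, and *Cebpa*, a transcription factor of AT2 cells, 3.82 to 4.69. The AT2 members had many open neighbours: other regions within 10 kb of them covered 3322 bp in the median, against 782 bp over all genes with a member. This was not particular to AT2 genes, since the median was 3340 bp at 2 club markers, 2794 bp at histone genes and 2447.5 bp at AT1 markers.

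The same inverse order held over the members at large. Sorted by mean percentile into quintiles of 2199 or 2200, they had a median of 1603, 1021, 779, 519 and 211 bp of other regions within 10 kb, lowest quintile first. The covered length was 1103 bp in the lowest quintile, 1173 bp in the next and 873 bp in the highest. A start was held by 63.8% of the lowest and 82.3% of the highest. The parts of neighbouring open chromatin and of covered length in the enrichment, whose background the deposited lists do not describe, were not tested.

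The highest members were short. *Lars2*, the mitochondrial leucyl-tRNA synthetase, had the highest mean percentile of all members, with an enrichment of 21.1 to 24.6 (median 23.2) over a stretch of 379 to 387 bp at its far end on chr9:123461798-123462184. Whether reads map uniquely there could not be checked from the lists, so this value is uncertain. The next, *Thg1l*, had 11.03 to 15.5 (median 12.7), so its values and those of *Lars2* do not overlap. *Zfp868* had 10.7 to 13.8, *Tango6* 10.3 to 15.2, *Zfp866* 9.51 to 13.4, *Srp9* 10.02 to 13.8, *Zfp954* 10.2 to 13.1, *N6amt1* 9.71 to 14.95, *Pm20d1*, a secreted enzyme of N-acyl amino acids, 8.96 to 13.5 and *Larp7* 10.2 to 12.4. These 10 covered 379 to 945 bp and had 0 to 2003 bp of other regions within 10 kb. Among the 10 lowest were *Cnn2* (1.62 to 2.20, median 1.86), *Zfp36* (1.65 to 2.17), *Hes1*, a repressor downstream of Notch (1.92 to 2.30), *Frmd8* (1.97 to 2.31), *Sfi1*, a centrosomal protein (1.79 to 2.29), *Arf5*, a small GTPase (1.96 to 2.33), *Sema3b*, a semaphorin (1.99 to 2.44), *Nfatc1*, a calcium-responsive factor (1.78 to 2.45), and *Cfl1*, which severs actin filaments (1.83 to 2.44). The 10 lowest had 1314 to 7336 bp of other regions within 10 kb, and by −log10 p they stood at a mean percentile of 18.5 to 57.8.

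The promoters under members had the letters of widely used promoters. Of 21045 promoters of 300 bases in the RefSeq table, 9819 overlapped a member, 3256 another region and 7970 no peak of any library. The median GC content was 62.0% under members, against 47.5% under no peak, and the ratio of observed to expected CG dinucleotides 0.791 against 0.199. Promoters under another region stood closer to those under members, at 60.0% and 0.648. The motifs were searched as exact letters on both strands: GGGCGG (the GC box of SP/KLF factors), CCGGAA (ETS), CCAAT (NFY), GCGCATGCG (NRF1), AAGATGGCG (YY1), TGACGTCA (CRE), TATAAA (the TATA box of TBP), TGAGTCA (AP-1), CACGTG (E-box) and ACTACAATT (ZNF143). None of these contains another, though matches can overlap. The GC box was in 69.8% of promoters under members, in 13.9% of those under no peak and in 46.7% of all. The ETS letters were in 30.7%, against 5.28% under no peak and 18.9% of all, and NRF1 in 4.17%, against 0.427% and 2.37%. The YY1 letters were in 3.38% (1.84% of all), CRE in 3.55% (2.26%), the E-box in 10.8% (7.91%) and ZNF143 in 0.876% (0.513%). TATAAA went the other way, with 5.94% under members, 22.9% under no peak and 12.7% of all, as did AP-1 with 3.12%, 6.36% and 4.69%. CCAAT was in 38.9%, 40.2% and 38.5%. Under another region the GC box was in 57.3% of promoters, the ETS letters in 16.5% and NRF1 in 1.69%. TATAAA was in 7.86% there, AP-1 in 5.31% and CCAAT in 32.9%. A match is not a bound site, and longer GC-rich sequence holds GC-rich letters more often.

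Within the members the letters followed the rank. From the lowest to the highest quintile the ETS letters were in 19.4%, 23.7%, 29.1%, 35.7% and 40.4% of promoters, and CCAAT in 31.8%, 34.5%, 36.8%, 39.95% and 48.1%. The GC box was in 73.0% of the lowest and 66.6% of the highest, so not all motifs moved with the rank. The 2495 members with ETS letters had a median percentile of 84.9, against 76.9 for the 5336 without them, and the 74 with ZNF143 letters 86.6 against 79.8. Of the promoters printed above, *Thg1l* holds ETS and TATA letters, and *Zfp868*, *Zfp866* and *Srp9* hold CCAAT and the GC box. The promoter of *Zfp36*, in the lowest 2 by rank, holds ETS letters as well, and that of *Cnn2* CCAAT, so the letters do not fix the rank of a single member.

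**Figure D4:**
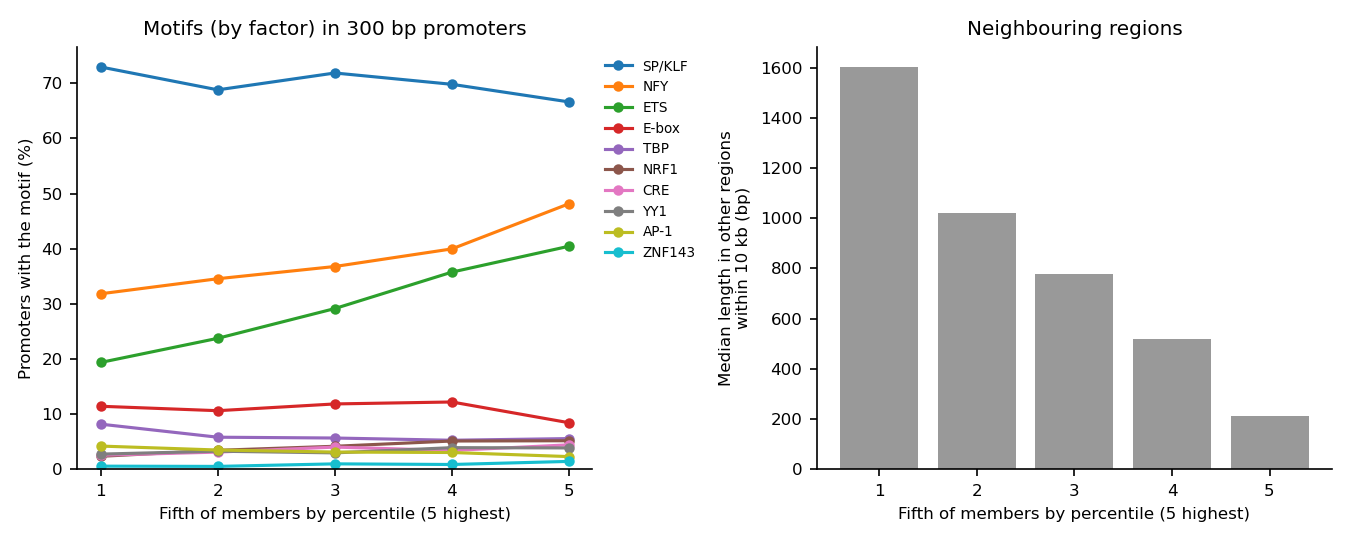
Share of 300 bp promoters with each motif (%, left, named by factor) and median length in other regions within 10 kb (bp, right) for members sorted into quintiles by mean percentile of enrichment, with the highest at 5. ETS letters are in 19.4% of the lowest and 40.4% of the highest quintile, while neighbouring length is 1603 bp in the lowest and 211 bp in the highest.

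Covered length at members was greater in niche than in distal AT2 cells by the medians, together with the rest of the list. The median member covered 1077, 1093 and 1034 bp in the 4T1 niche libraries, against 1008, 1038 and 986 bp in the 4T1 distal libraries, and 1058, 979 and 981 bp in the CT26 niche libraries, against 908, 888 and 908 bp in the CT26 distal libraries. The CT26 groups do not overlap, and the 4T1 groups do, since the lowest niche library (1034 bp) lies below the highest distal one (1038 bp). The difference was 57.3 bp in 4T1 (exact permutation p = 0.2, where the smallest possible is 0.1), 104.7 bp in CT26 (exact p = 0.1, the smallest possible) and 81.0 bp over both models (exact permutation within models, p = 0.01, n = 6 libraries a site, smallest possible 0.005). With each library scaled by the median of its other constitutive regions, the difference was 12.4 bp in 4T1 (exact permutation p = 0.2), −24.3 bp in CT26 (p = 0.2) and −5.99 bp over both (p = 0.56), so the sign turned in 2 of 3 cases. List length moved with the site as well: 65373 ± 1597 peaks in the 4T1 niche against 57404 ± 976 in 4T1 distal lung, and 52655 ± 2498 in the CT26 niche against 46808 ± 4206 in CT26 distal lung (SD, n = 3 each). Its part in the lengths was not tested.

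For single members, widths were tested with limma over the 35222 regions held by all 12 libraries, on log2 bp after scaling each library to its own median over these regions. The threshold was a Benjamini-Hochberg adjusted p under 0.05. All log2 changes below are on that scale and say what a region did relative to the median region. Without scaling the median of all regions shifted by 0.14 in CT26 niche against distal, by 0.10 over both models and by −0.16 in CT26 against 4T1.

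In CT26, 38 of 10996 members were wider and 4 narrower in the niche than in distal lung. Over all regions tested the shares were 0.463% wider and 0.0625% narrower, and over the members 0.346% and 0.0364%, so the members did not stand above the background. At an unadjusted p under 0.05 the direction was the opposite one, with 502 wider and 1283 narrower members. Here and in the comparisons below, the share of all regions at that threshold was not counted. Nothing particular to the members is therefore read from these counts. The median log2 change was −0.0577 at members and −0.0386 over all regions tested. With the total covered length as the scale the called members were 16 wider and 10 narrower, beside 89 and 50 of all regions tested. The largest change was at *Atp6v1g3*, a subunit of the proton pump V-ATPase, in a region at its far end. It covered 1652, 1498 and 1552 bp in CT26 niche libraries, against 386, 230 and 279 bp in CT26 distal libraries, which do not overlap (log2 change 2.24 ± 0.146 SE, limma adjusted p = 0.000126). *Nup210*, a nuclear pore protein, covered 1276, 1338 and 1218 bp in the CT26 niche, against 515, 291 and 396 bp in distal lung (log2 1.53 ± 0.195, adjusted p = 0.00828). *Amdhd2*, a deacetylase of amino sugars, covered 2353, 2224 and 2405 bp, against 936, 1047 and 748 bp (1.19 ± 0.111, adjusted p = 0.00164). *Psmd8*, a subunit of the proteasome cap, covered 1505, 1484 and 1489 bp in the CT26 niche, against 604, 673 and 623 bp in distal lung (1.06 ± 0.0683, adjusted p = 0.000126). *Agap3*, an activator of Arf GTPases, covered 1609, 1572 and 1558 bp in the niche, against 608, 675 and 695 bp in distal lung (1.08 ± 0.0724, adjusted p = 0.000138). *Pla2g4f*, a phospholipase, changed by 1.10 ± 0.131 (adjusted p = 0.00556). In these 6 members each distal value lay below each niche value.

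Other wider members lost their call more readily. *Oas1g*, of the antiviral oligoadenylate synthetases (log2 1.62 ± 0.295, adjusted p = 0.0462), *Uba1*, the ubiquitin-activating enzyme (1.27 ± 0.211, adjusted p = 0.0296), *Slc27a1*, a fatty acid transporter (1.21 ± 0.195, adjusted p = 0.0258), *Rab43*, a small GTPase (1.16 ± 0.202, adjusted p = 0.0377), and *Slc9b2*, a sodium and proton exchanger (1.07 ± 0.193, adjusted p = 0.0442), all passed limma with groups that did not overlap. The call of *Oas1g* was kept only without 4T1 distal 3 or CT26 distal 1, that of *Rab43* only without 4T1 niche 1 or CT26 distal 3, and that of *Slc9b2* only without CT26 distal 1 or CT26 niche 2. *Uba1* lost its call without 4T1 distal 1 or 2, any 4T1 niche library, or CT26 niche 1 or 2, and *Slc27a1* without 4T1 niche 1, CT26 distal 3 or any CT26 niche library. Of the paragraph before, *Atp6v1g3*, *Nup210*, *Amdhd2*, *Agap3* and *Pla2g4f* kept theirs in all 12 cases of a library left out. For *Psmd8* the change between the CT26 sites was not followed through these cases. The count of wider members was 68 without CT26 distal 1 and 23 without CT26 niche 1. Members at a gene start among the 38 included *Btg1*, an antiproliferative gene, and *Cd200*, a ligand of a myeloid inhibitory receptor.

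The narrower members were *Phlda1*, a pleckstrin-homology-like protein, *Myo5c*, an unconventional myosin of secretory granules, *Urb1*, a ribosome biogenesis factor, and *Snx4*, a sorting nexin. *Phlda1* covered 1099, 1036 and 1046 bp in the CT26 niche, against 1618, 1506 and 1917 bp in CT26 distal lung (log2 change −0.84 ± 0.0872, limma adjusted p = 0.0027). *Myo5c* changed by −0.92 ± 0.14 (adjusted p = 0.0202), and lost the call without CT26 niche 1 or CT26 niche 3. *Urb1* changed by −0.57 ± 0.0941 (adjusted p = 0.0291), and kept it only without 4T1 distal 1 or 3, CT26 distal 1 or 2, or CT26 niche 3. *Snx4* (−0.39 ± 0.0706, adjusted p = 0.0462) had overlapping groups and was named after its values were seen. For *Phlda1* the 3 CT26 niche libraries were the narrow ones, and the other 9 covered 1506 to 1917 bp.

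Most of the wider members in CT26 were narrowest in CT26 distal lung. In 35 of the 38 each of the 3 CT26 distal values lay below all 9 others, which themselves varied at some members: *Haus8* covered 1515 to 1581 bp in the CT26 niche, and 1027 to 1136 bp in 4T1 distal lung. This order held for 1258 of all members (11.4%) and for 11.7% of all regions tested, and since the 38 were picked by the same CT26 distal libraries nothing is read from their count. *Med26*, a Mediator subunit, covered 1966, 1884 and 1836 bp in the CT26 niche, against 954, 966 and 921 bp in CT26 distal lung, and 1906, 1905 and 1982 bp in the 4T1 niche, against 1839, 1876 and 1873 bp in 4T1 distal lung. The stretch covered in all CT26 niche libraries and in no CT26 distal one had a median length of 437.5 bp (19 to 1106 bp). It lay to at least 90% on one side of the part left in CT26 distal lung in 28 of the 38. At *Btg1*, *Cd200*, *Kcnc2* and *Amdhd2*, named after their values were seen, it lay between parts that CT26 distal lung kept. The nearest gene end lay in the part left in CT26 distal lung for 26, in the niche-only stretch for 5 and elsewhere for 7. At least 1.5 times narrower in CT26 distal lung, with no overlap, were 1.91% of members and 3.96% of all regions tested. The shorter CT26 distal lists go with this pattern, and their part in it was not tested.

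**Figure D5:**
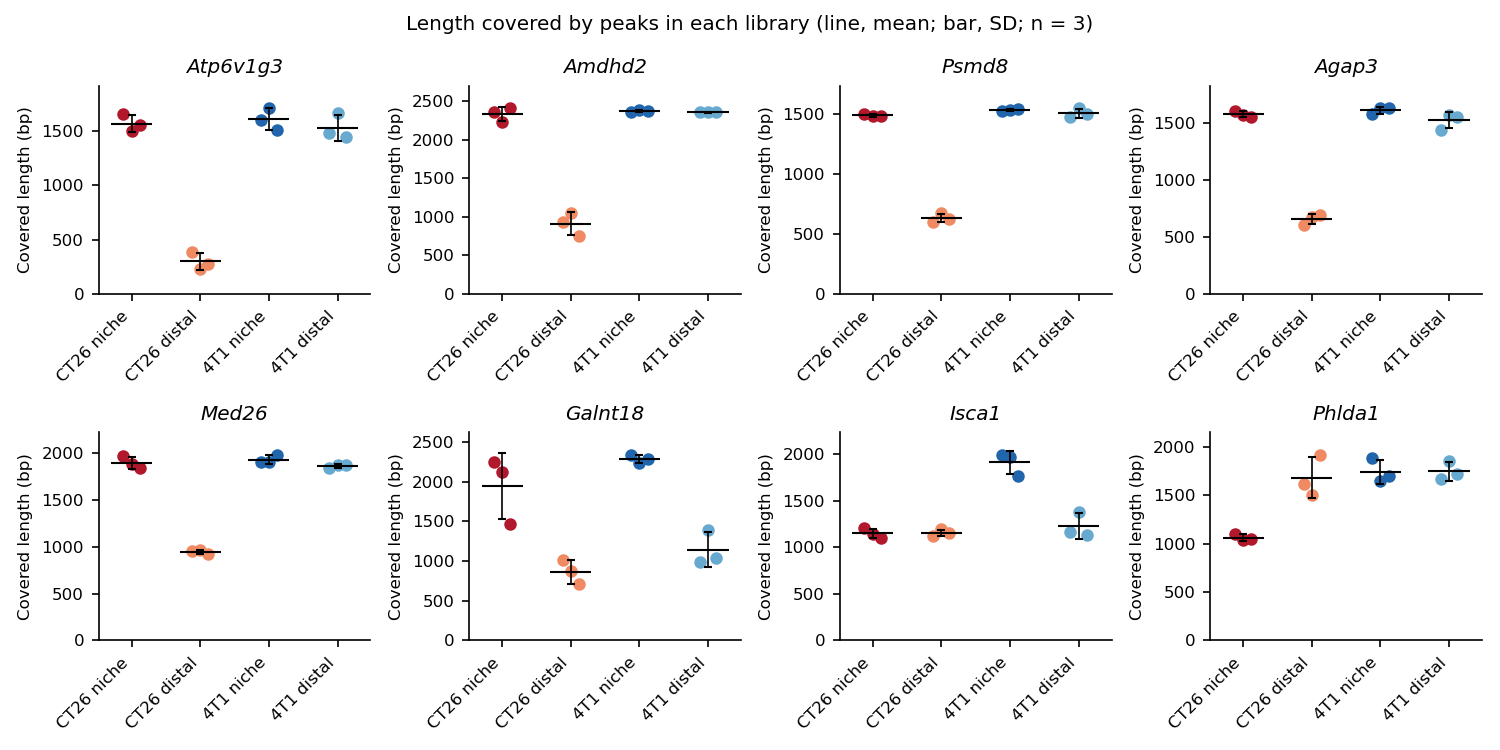
Length covered by peaks (bp) in each library (points) with the mean (line) and SD (bar, n = 3) at 8 members, for CT26 niche, CT26 distal, 4T1 niche and 4T1 distal libraries. CT26 distal values stand alone at the low end for *Atp6v1g3*, *Amdhd2*, *Psmd8*, *Agap3* and *Med26*, both distal groups are low at *Galnt18*, the 4T1 niche is high at *Isca1*, and the CT26 niche is low at *Phlda1*.

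In 4T1, 2 members were wider in the niche and 0 narrower by limma, with 0.0341% of all regions tested wider and 0.0182% of members. At an unadjusted p under 0.05 there were 317 wider and 180 narrower members. The median log2 change was −0.0168 at members and −0.0223 over all regions tested. *Isca1*, an assembly factor of mitochondrial iron-sulphur clusters, covered 1995, 1976 and 1770 bp in the 4T1 niche, against 1161, 1385 and 1132 bp in 4T1 distal lung (log2 0.58 ± 0.0713, adjusted p = 0.0293). These groups do not overlap. The call of *Isca1* was lost without 4T1 distal 1 or 3, 4T1 niche 1, 2 or 3, or CT26 distal 2 or 3. It was also lost with total covered length as the scale (limma adjusted p = 0.238, with 0 members called in 4T1) and with no variance trend (adjusted p = 0.0596), and the adjusted p over its alternatives that left out no library was 0.000983 to 0.238. The count was 0 without 4T1 distal 1, 4T1 niche 2 or 3, or CT26 distal 2 or 3, 4 without CT26 niche 1 and 5 without 4T1 niche 1 or CT26 niche 3.

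Over both models, 14 members were wider in the niche and 1 narrower, against 0.136% and 0.00568% of all regions tested. Divided by total covered length instead, the counts were 49 wider and 1468 narrower, beside 214 and 3545 of all regions tested. The balance of the 2 directions therefore rests on the scale, over all regions as at members. At an unadjusted p under 0.05 the balance was 525 wider and 1145 narrower members, opposite to the calls, and it was not counted over all regions. The median log2 change was −0.0314 at members and −0.0244 over all regions tested. Of the called members, 5 had niche and distal libraries that did not overlap. *Slc9b2* covered 487 to 769 bp in niche libraries, against 224 to 325 bp in distal ones (1.11 ± 0.137, adjusted p = 0.0144), lost without 4T1 niche 2. *Galnt18*, which starts O-glycans, covered 1463 to 2339 bp, against 708 to 1392 bp (0.97 ± 0.124, adjusted p = 0.0179), lost without CT26 niche 1 or any 4T1 niche library. *Gemin7*, of the complex that assembles spliceosomal particles, covered 907 to 1706 bp, against 707 to 813 bp (0.85 ± 0.12, adjusted p = 0.0298), and *Haus8*, a subunit of augmin, which branches microtubules, 1172 to 1581 bp, against 951 to 1136 bp (0.35 ± 0.0498, adjusted p = 0.0321). *Gemin7* lost the call without any 4T1 library or CT26 niche 1, and *Haus8* without any 4T1 distal library, 4T1 niche 1 or 2, or CT26 niche 2 or 3. The single narrower member was *Phlda1*, whose groups overlap. The count of members called was 8 without 4T1 niche 2, 36 without CT26 distal 1, 40 without CT26 distal 2 and 26 without CT26 distal 3.

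Between the tumour models over both sites, 3 members were wider and 17 narrower in CT26 than in 4T1, against 0.017% and 0.247% of all regions tested. Without scaling the counts were 0 and 300, beside 4 and 1763 of all regions tested. With total covered length they were 5895 and 46, beside 12025 and 445, so here too the balance rests on the scale. At an unadjusted p under 0.05 the balance was 2592 wider and 329 narrower members, again opposite to the calls. It was not counted over all regions, so nothing particular to the members is read from it. The median log2 change was 0.0816 at members and 0.0271 over all regions tested. *Cxcr5*, a chemokine receptor of B cells, in a region shared with *Bcl9l*, covered 923, 1008, 794, 677, 685 and 855 bp in the 6 CT26 libraries, against 1655 to 1751 bp in the 6 from 4T1, which do not overlap (log2 −0.86 ± 0.0777, limma adjusted p = 0.0053). It kept its call in all 12 cases. *Zfp710* covered 346 to 684 bp in CT26, against 724 to 1470 bp in 4T1 (−1.20 ± 0.147, adjusted p = 0.0155), lost without 4T1 niche 1. *Jagn1*, a protein of the endoplasmic reticulum, covered 506 to 934 bp in CT26, against 1035 to 1963 bp in 4T1 (−1.09 ± 0.155, adjusted p = 0.026), and *Eif4e*, which binds the cap of messenger RNA, 218 to 487 bp against 683 to 870 bp (−1.07 ± 0.176, adjusted p = 0.0437). *Dennd2d*, *Zan*, *Preb*, *Lrp4* and *Pak6* also fell without overlap, by 0.89, 0.78, 0.58, 0.45 and 0.42 on the log2 scale. Each of these 5 calls, and those of *Jagn1* and *Eif4e*, was lost without 5 or more of the 12 libraries in turn, 4T1 distal 1 and 4T1 niche 1 among them. The wider members, *Ube2v2*, *Nectin3* and *Ezh2*, had overlapping groups and were named after their values were seen. The count of calls was 167 without CT26 niche 1, 32 to 43 without a CT26 distal library, 3 to 13 without a 4T1 library or without CT26 niche 3, and 14 without CT26 niche 2.

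The effect of the site differed between the models at 10 members, 9 with a more positive change in CT26 and 1 with a more positive change in 4T1, against 0.0681% and 0.017% of all regions tested. These are *Atp6v1g3*, *Amdhd2*, *Psmd8*, *Ano9*, *Agap3*, *Mphosph6*, *Med26*, *Morc3* and *Ythdf1*, at each of which the CT26 distal libraries lay below the other 9, and *Isca1*, high in the 4T1 niche. *Mphosph6*, a partner of the RNA exosome, covered 1958, 1831 and 1920 bp in the CT26 niche, against 909, 873 and 1000 bp in CT26 distal lung, and 1962, 2023 and 1857 bp in the 4T1 niche, against 1925, 1958 and 1999 bp in 4T1 distal lung. The count was 6 without 4T1 niche 2, and 21, 32 and 24 without CT26 distal 1, 2 and 3.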

How the data were processed

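Broad peak lists of 12 Omni-ATAC-seq libraries (4 groups of 3) were analysed on GRCm38. Per the submitters' processing notes the authors used MACS2 and bedtools; no version or setting is stated there. Column 7 of each deposited list is the authors' fold enrichment of a peak, a ratio, and the deposited −log10 p and −log10 q stand beside it. Each deposited list holds the peaks of 1 library. Peaks on the autosomes and X were merged where they shared at least 1 bp, and gene ends and promoter sequences came from RefSeq tables. A region's value in a library was its length under peaks and its highest enrichment, ranked as a percentile within that list. Lists were compared by exact sign-flip tests over 12 libraries, and sites by exact permutation. Widths were tested with limma 3.58.1 in R 4.3.3, with 4 group means, a variance trend and a threshold of 0.05, after a check on simulated data. The test set includes regions of 2500 bp or more. Genes were named by rank (10 highest, 10 lowest, 5 widest ranges), by family, from marker lists, and by called widths whose groups did not overlap. The members and lists were chosen with earlier results of these data known. Alternatives changed the scaling, the filters, the block and the libraries. Results for some genes that these rules name are not reported here.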

Additional observations from a re-analysis of the deposited data

Results flagged for a closer look

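The effect of the site on width differed between the models, by the interaction in limma, at 10 members. The difference, as the log2 change in CT26 minus that in 4T1, was 2.24 at *Atp6v1g3*, 1.25 at *Amdhd2*, 1.10 at *Psmd8*, 1.07 at *Ano9*, 1.07 at *Agap3*, 0.94 at *Mphosph6*, 0.84 at *Med26*, 0.83 at *Morc3*, 0.62 at *Ythdf1* and −0.77 at *Isca1*. The calls of *Atp6v1g3*, *Psmd8*, *Agap3*, *Mphosph6*, *Med26* and *Morc3* were kept without each of the 12 libraries in turn. Those of *Med26* and *Morc3* did not pass in every other setting run, and *Atp6v1g3* had no value with a −log10 q of at least 5. *Ythdf1* kept its call only without a CT26 distal library, and *Amdhd2* without a CT26 distal library or CT26 niche 1 or 2. *Isca1* kept it only without 4T1 distal 2, a CT26 distal library or CT26 niche 2, and *Ano9* lost it without 4T1 distal 1 or any 4T1 niche library.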

How the results depend on the processing

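The 4 differences within libraries kept their direction under every alternative run, at an exact p of 0.000488 or, with 1 library left out, 0.000977, the smallest that 11 libraries allow. The percentile difference between gene ends and other constitutive regions and the log2 enrichment ratio moved most, the first from 5.85 with a −log10 q of at least 5 to 21.6 when ranked by −log10 p, the second from 0.10 in the same setting to 0.31 with a width limit of 1500 bp. The width difference between sites, relative to the other constitutive regions, was −24.3 bp in CT26 and −5.99 bp over both models. Counts of members called, in the order 4T1, CT26, both models, CT26 against 4T1 and the interaction, varied more. Leaving out 1 library gave 0 to 5, 27 to 73, 8 to 40, 3 to 167 and 6 to 32. The calls over all regions with a library left out are not given here, so nothing particular to the members is read from those counts. With no scaling the first 4 were 5, 178, 131 and 300, and with total covered length 0, 26, 1517 and 5941. Over all 35222 regions tested, wider and narrower, no scaling gave 17 and 1, 642 and 9, 371 and 2, and 4 and 1763. Total covered length gave 1 and 0, 89 and 50, 214 and 3545, and 12025 and 445. With 2 choices changed together, all regions in at least 3 libraries and 500 bp added to each width, the members called were 35 in 4T1, 87 over both, 143 between models and 36 for the interaction. Of the 64948 regions tested there, 1987 were wider and 101 narrower in 4T1, and 1680 and 184 over both. Between models they were 216 and 2362, and for the interaction 258 and 1252. With a −log10 q of at least 5 the members called were 6 in 4T1 and 26 in CT26. Of the 21068 regions tested there, 17 were wider and 2 narrower in 4T1, and 69 and 10 in CT26. With the replicate block the 5 member counts were 0, 22, 9, 5 and 4. Over all regions, wider and narrower, the block gave 3 and 0, 103 and 7, 22 and 1, 0 and 29, and 7 and 2. The cause of these shifts in the counts was not tested. Whether replicate numbers pair the samples could not be settled, and the main tests of sites took them as unpaired. Same-numbered deviations correlated at 0.032 to 0.043 in 4T1, where each sample correlated best with its own number. Samples of different numbers correlated at −0.028 to −0.0078 there. In CT26 the same-numbered deviations correlated at −0.016 to 0.0045. No named width change reversed, and 12 of 39 passed in every setting that gave them a value. With a −log10 q of at least 5, 22 passed, 2 did not and the others had no value. Of the named mean percentiles, 115 of 162 moved when ranked by −log10 p, an alternative chosen after seeing the data. Depth is unknown, so how it limits widths could not be measured.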
